A study of Homo sapiens with 2 samples.

Results

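Heat shock proteins were examined in A549 cells grown as spheroids and as a monolayer. They were represented by 10 genes: HSPA1A and HSPA1B, HSPA8, HSPH1, DNAJB1, BAG3, HSP90AA1, HSPB1, HSPD1 and HSPE1. Every probe set that the platform annotation listed for any of these genes, alone or together with other genes, was included, whatever its signal. This gave 24 of the 54613 probe sets that are not controls. Of the 24, 17 were annotated with 1 gene and 7 with several, and 17 carried the suffix _s_at or _x_at, with which the maker marks probes that can bind more than 1 transcript.

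Heat shock proteins are molecular chaperones that bind unfolded protein and help it reach or regain its native form. HSP70 proteins bind exposed hydrophobic stretches in a cycle driven by ATP, in which J domain proteins (HSP40) stimulate ATP hydrolysis and HSP110 and BAG proteins act as nucleotide exchange factors. HSP90 acts later, on clients such as kinases and steroid receptors, small heat shock proteins hold unfolded protein in solution, and HSP60 with HSP10 folds protein in the mitochondrial matrix. Many of these genes are induced through heat shock factor 1 (HSF1), which binds inverted repeats of the letters GAA and TTC called heat shock elements, and cancer cells often express them at a high level without heat.

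A549 is an established line of human lung adenocarcinoma. The monolayer sample was grown in adherent dishes in DMEM with 10% FBS, and the spheroid sample in suspension in serum-free DMEM/F12 with N2, 20 ng/ml EGF and 10 ng/ml bFGF. Both were harvested on day 12, and medium, serum and attachment differed together, so that these cannot be told apart. The titles and characteristics give no drug or genetic change, but a description attached to both samples mentions another line, a hepatoma, and a compound, which goes against the A549 label. Expression was read on a Human U133 plus 2.0 chip of Affymetrix, 1 for each sample. With 1 array per culture there was no replicate error and no test, a limit of 2-fold was used to describe size, and a ratio below describes these 2 samples and not the culture conditions. In RNA from whole cultures, fewer cells that express a gene and less of its RNA per cell cannot be told apart.

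Values are MAS5 signal intensities on a linear scale, and each log2 ratio is spheroid over monolayer. The floor of each array was its median signal, 108 in monolayer and 119 in spheroid culture. The ratios of probe sets above the floor on both arrays had a robust SD of 0.53 in log2 units. Where a gene had several such probe sets, its 2 brightest gave ratios that differed with an SD of 0.50 over 5453 genes. Both are only rough scales for reading a single ratio. The first also holds differences between the cultures, and the second holds no variation between repeated cultures or arrays, so neither is the error of a ratio. The 3′ to 5′ signal ratio was 1.09 in monolayer and 1.15 in spheroid culture for GAPDH and 1.55 and 1.99 for ACTB. All 5 epithelial markers were measurable, and their signals, mostly those of KRT8 and KRT18, summed to 76965 in monolayer and 61357 in spheroid culture. They did not share 1 direction, since KRT19 was 4.64-fold and EPCAM 1.42-fold higher and CDH1 1.67-fold lower. The 3 measured markers that are bright in A549 (ALDH1A1, AKR1B10 and AKR1C1) gave 153852 and 158409. At the floor on both arrays, on all their probe sets, were the alveolar markers NKX2-1 and AGER, the leukocyte marker PTPRC, the endothelial markers VWF and CDH5 and the fibroblast markers COL1A2 and PDGFRB, while LYZ (leukocyte) was at the floor on the probe set read for it but not on another. Other markers of these lists were measured. SFTPC (alveolar) was at 56.0 and 219, at least 2.03-fold higher, and SFTPB (alveolar) at 321 and 306. CD14 (leukocyte) was at 437 and 111, at least 3.66-fold lower, CD3E (leukocyte) at 140 and 144 and PECAM1 (endothelial) at 270 and 475. COL1A1 (fibroblast) was at 852 and 618 and DCN (fibroblast) at 209 and 132, but 2 other probe sets of each were higher in spheroid culture. The other SFTPB probe sets went both ways. Of 8 hepatoma markers, 3 were at the floor on both arrays, and the list summed to 2180 in monolayer and 14544 in spheroid culture. Within it, albumin (ALB) had 23.4 and 4639, at least 42.9-fold higher, APOH was 8.85-fold higher and AFP, with 106 and 263, was at least 2.43-fold higher. Their part in the ratios below was not tested.

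Of the 24 heat shock protein probe sets, 23 exceeded the floor of 1 array or both, and 22 exceeded both floors. The 1 probe set at the floor on both arrays belonged to HSPD1. Signals were higher in spheroid culture for 17 of the 23 and lower for 6, that is 73.9% higher, against 54.6% of all 29967 probe sets above the floor. HSPA8, HSP90AA1, HSPH1 and the HSPA1A and HSPA1B pair each had several probe sets, all of them higher, so these 17 count some genes repeatedly. The median log2 ratio was 0.24 for the 23 and 0.06 for all. Most differences were small, with 20 of the 23 between 1.5-fold lower and 1.5-fold higher. Only 2 were at least 2-fold higher (8.70%, against 6.48% of all probe sets), and both belonged to HSPA1A and HSPA1B. None was at least 2-fold lower, against 4.59% of all. At a limit of 1.5-fold, 3 were higher (13.0%, against 17.1%) and 0 were lower (against 12.4%). None was 3-fold higher, against 1.91% of all. The share past each limit was therefore near or below that of the whole array, and the largest ratios were those of the inducible HSP70 genes and HSPH1.

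**Figure D1:**
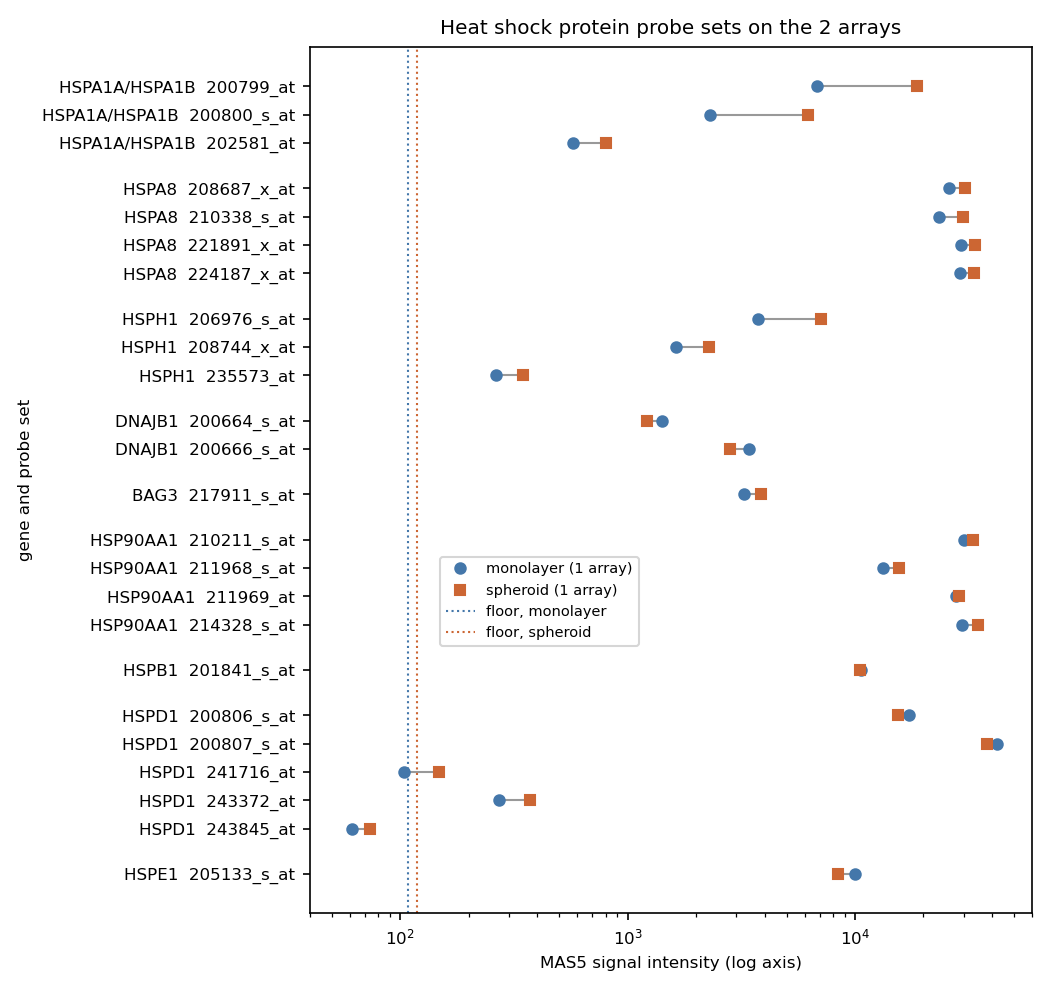
MAS5 signal intensity (log axis) of each of the 24 heat shock protein probe sets on the monolayer array (circle) and the spheroid array (square), with 1 array per culture and no error bars. Dotted lines mark the floor of each array, 108 and 119, and the widest gaps are those of 200799_at, 200800_s_at and 206976_s_at.

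HSPA1A and HSPA1B encode the stress-inducible cytosolic HSP70. They are neighbouring genes on chromosome 6 in GRCh38.p14, HSPA1A at chr6:31815543-31817942 and HSPA1B at chr6:31827738-31830254, both on the plus strand and 9795 bases apart. The 250 bases before each start are shown because the genes are near copies also outside their transcripts, and the array could not separate them. The sequences are from RefSeq, 5′ to 3′ on the plus strand, chr6:31815293-31815542 and chr6:31827488-31827737, with the heat shock element match in capitals.
HSPA1A: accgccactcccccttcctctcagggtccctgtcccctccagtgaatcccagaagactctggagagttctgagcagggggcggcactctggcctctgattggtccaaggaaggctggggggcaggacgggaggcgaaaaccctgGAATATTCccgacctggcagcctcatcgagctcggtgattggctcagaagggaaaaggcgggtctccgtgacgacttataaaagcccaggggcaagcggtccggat
HSPA1B: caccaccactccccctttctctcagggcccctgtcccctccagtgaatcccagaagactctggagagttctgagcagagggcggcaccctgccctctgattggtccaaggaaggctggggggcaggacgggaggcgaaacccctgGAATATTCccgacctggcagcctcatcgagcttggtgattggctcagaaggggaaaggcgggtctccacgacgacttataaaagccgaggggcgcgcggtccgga
These windows had 235 identical bases of 251 aligned (93.6%), and the match lay at bases 106 to 99 before the HSPA1A start and 105 to 98 before the HSPA1B start.

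Each of the 3 probe sets for inducible HSP70 listed both genes, and none listed either alone, so their signals could not be assigned to HSPA1A or HSPA1B. Probe set 200799_at gave 6819 in monolayer and 18761 in the spheroids, 2.75-fold higher (log2 ratio 1.46). Probe set 200800_s_at, which also listed HSPA1L, gave 2315 and 6239, 2.70-fold higher (log2 ratio 1.43). Both name an HSPA1A transcript as their source and differed by nearly the same ratio. The third, 202581_at, which names an HSPA1B transcript, gave 576 and 807, only 1.40-fold higher (log2 ratio 0.49), so the probe sets had 1 direction but not 1 size. HSPA1L, a close relative, was near the floor on its own probe set, with 110 in monolayer and 123 in spheroid culture.

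HSPA8 (chr11:123057489-123062462) encodes the constitutive cytosolic HSP70, which works in normal folding and in the uncoating of clathrin vesicles. All 4 of its probe sets also listed the small nucleolar RNA genes SNORD14C and SNORD14D, which lie within HSPA8 introns. Probe set 210338_s_at gave 23318 in monolayer and 29834 in the spheroids, 1.28-fold higher (log2 ratio 0.36), the largest ratio of the 4. Probe set 208687_x_at gave 25802 and 30417, which is 1.18-fold higher. The signals of 221891_x_at were 29227 and 33787, and those of 224187_x_at were 28953 and 33469, in both cases 1.16-fold higher. All 4 were thus slightly higher in spheroid culture, within 1.5-fold.

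HSPH1 (chr13:31134973-31162388) encodes HSP105, an HSP110 protein that exchanges nucleotide on HSP70. Its 3 probe sets were all higher in spheroid culture. Probe set 206976_s_at gave 3735 in monolayer and 7066 in the spheroids, 1.89-fold higher (log2 ratio 0.92), just under the 2-fold limit. Probe set 208744_x_at gave 1635 and 2285, 1.40-fold higher, and 235573_at gave 263 and 348, 1.32-fold higher. After the HSPA1A and HSPA1B probe sets, 206976_s_at had the largest ratio of the group.

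DNAJB1 (chr19:14514769-14560391) encodes the J domain partner of inducible HSP70. Both of its probe sets were lower in spheroid culture, the direction opposite to HSPA1A and HSPA1B. Probe set 200666_s_at gave 3416 in monolayer and 2824 in spheroid culture, 1.21-fold lower (log2 ratio -0.27), and 200664_s_at gave 1423 and 1222, 1.16-fold lower (log2 ratio -0.22). BAG3 (chr10:119651380-119677819), a nucleotide exchange factor that links HSP70 to autophagy, had 1 probe set, 217911_s_at, with 3250 in monolayer and 3864 in the spheroids, 1.19-fold higher. The cofactors of HSP70 in this group, HSPH1, DNAJB1 and BAG3, therefore did not share 1 direction.

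HSP90AA1 (chr14:102080742-102139749) encodes the inducible cytosolic HSP90 alpha. Its 4 probe sets were between 1.04-fold and 1.18-fold higher in spheroid culture. Probe set 214328_s_at gave 29681 in monolayer and 34689 in spheroid culture (log2 ratio 0.22), and 211968_s_at gave 13303 and 15675 (log2 ratio 0.24). Probe set 210211_s_at gave 30283 and 32974 (log2 ratio 0.12), and 211969_at gave 27721 and 28694 (log2 ratio 0.05). The last 2 turned slightly negative, to -0.02 and -0.09, when each array was divided by its median, so no direction was taken from them. HSPB1 (chr7:76302673-76304292), which encodes the small heat shock protein HSP27, gave 10630 in monolayer and 10485 in spheroid culture on 201841_s_at (log2 ratio -0.02). Its ratio ran from -0.16 to 0.04 over 6 settings of scale and floor, and it had no settled direction.

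HSPD1 and HSPE1 encode HSP60 and HSP10 of the mitochondrial chaperonin and lie head to head on chromosome 2, with 104 bases between chr2:197486584-197500274 and chr2:197500379-197503449. The HSPE1 probe set 205133_s_at gave 10019 in monolayer and 8393 in spheroid culture, 1.19-fold lower (log2 ratio -0.26). The bright HSPD1 probe set 200807_s_at gave 42110 and 38164, 1.10-fold lower, and 200806_s_at gave 17240 and 15386, 1.12-fold lower. With quantile normalization the first of these HSPD1 ratios became 0.06. The other HSPD1 probe sets went the opposite way or could not be read. Probe set 243372_at gave 273 and 371, 1.36-fold higher, and 241716_at gave 104 and 148, at least 1.37-fold higher because the monolayer signal was at the floor. Probe set 243845_at, with 61.2 and 74.0, was at the floor on both arrays and has no ratio. HSPD1 was thus slightly lower on its bright probe sets and higher on its dim ones.

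**Figure D2:**
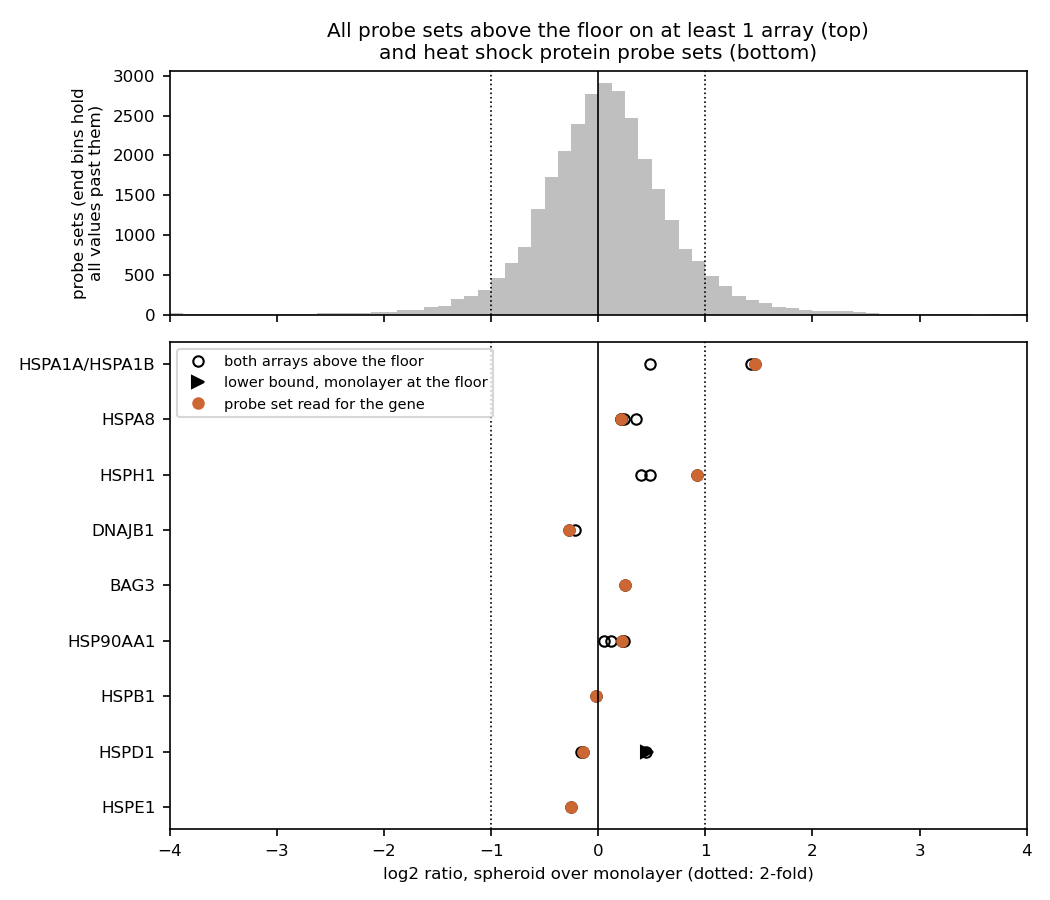
The upper panel counts all 29967 probe sets above the floor by log2 ratio, spheroid over monolayer, with values past the axis in the end bins, and the lower panel shows each heat shock protein probe set, the filled circle being the one read for the gene. The HSPA1A and HSPA1B probe sets at 1.46 and 1.43 lie past the dotted 2-fold line, HSPH1 at 0.92 lies just inside it, and the other genes lie near 0.

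Read from the probe set of highest mean log2 signal, the 10 genes had a median log2 ratio of 0.22, or 0.21 with HSPA1A and HSPA1B counted once since they share a probe set. All 13229 genes above the floor had a median of 0.04. From highest to lowest the order was HSPA1A and HSPA1B, HSPH1, BAG3, HSP90AA1, HSPA8, HSPB1, HSPD1, HSPE1 and DNAJB1. Ratios were negative as reported for HSPB1, HSPD1, HSPE1 and DNAJB1, beside 47.2% lower among all genes above the floor. The ratios of BAG3, HSP90AA1 and HSPA8 lay between 0.21 and 0.25 and those of HSPE1 and DNAJB1 were -0.26 and -0.27, so these neighbours could not be ranked against a spread of 0.50 between probe sets of a gene. Over 6 settings of scale and floor, 200799_at stayed between 2.50-fold and 2.95-fold higher, 200800_s_at between 2.45-fold and 2.79-fold, and HSPH1 206976_s_at between 1.72-fold and 1.97-fold.

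**Figure D3:**
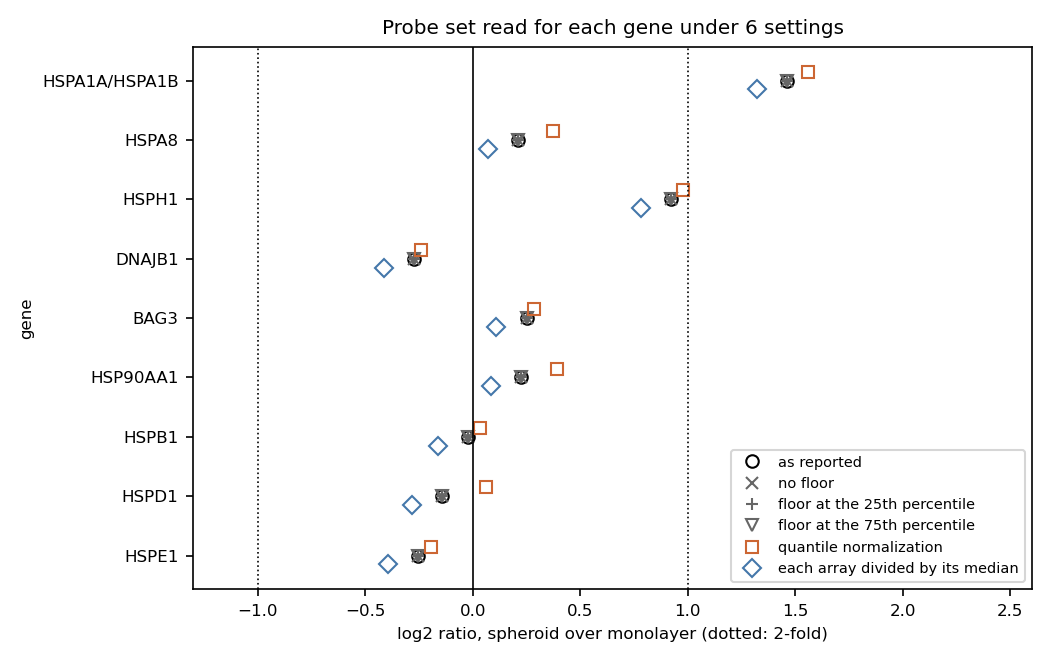
Log2 ratio, spheroid over monolayer, of the probe set read for each heat shock gene under the reported setting and 5 others (none or another floor, from the 25th or 75th percentile, quantile normalization, or division by the array median). Only HSPA1A and HSPA1B lie past the dotted 2-fold line in every setting, and HSPB1 and HSPD1 lie on either side of 0.

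The sequences before the annotated starts of the 10 genes were searched for 2 forms of the heat shock element, GAANNTTC and TTCNNGAA, where N is any base. Each form reads the same on both strands, and matches could overlap by a shared unit. In the 250 bases before 35116 annotated RefSeq starts, 5.78% of windows held GAANNTTC, 6.62% held TTCNNGAA and 11.6% held either. Of the 14 windows of the 10 genes, 7 held either form, from 7 genes: HSPA1A, HSPA1B, HSPA8, HSPB1, DNAJB1, HSP90AA1 and HSPD1. For DNAJB1, HSP90AA1 and HSPD1 only the window of the second annotated start held a match. Those windows, the HSPA8 window and the other DNAJB1 windows overlapped the annotated extent of their own gene, so they do not all lie upstream of the gene. Since all 10 were chosen as heat shock genes, this count is only a description of these windows.

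Stretches of 30 bases around a match are shown for the other 5 genes, because they differ in how many units follow each other. All are RefSeq sequence of GRCh38.p14, 5′ to 3′ on the strand of the gene, with the matches in capitals. The HSPA8 stretch is chr11:123062171-123062200, HSP90AA1 (its second annotated start) chr14:102087104-102087133, DNAJB1 (second start) chr19:14518426-14518455 and HSPD1 (second start) chr2:197500061-197500090, all on the minus strand, and the HSPB1 stretch is chr7:76302480-76302509 on the plus strand.
HSPA8: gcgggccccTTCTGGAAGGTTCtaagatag
HSP90AA1: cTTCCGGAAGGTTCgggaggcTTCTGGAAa
HSPD1: gcattTTCTGGAAAGTTCTGGAAccgagcg
DNAJB1: ggcgggctctgGAAGCTTCcgccggacggg
HSPB1: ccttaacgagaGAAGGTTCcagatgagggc
HSPA8, HSP90AA1 and HSPD1 held 3 or more units in a row, as did 0.441% of all windows, while the DNAJB1 and HSPB1 matches were single pairs of units. DNAJB1 had matches at bases 77 to 70 and 47 to 40 before its start, and the second of them is shown.

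The windows of HSPH1, HSPE1 and BAG3 held neither form, which says only that these letters are not there. The HSPH1 window, chr13:31162389-31162638 on the minus strand, is shown for contrast with HSPA1A, since HSPH1 had the next largest ratio without a match.
HSPH1: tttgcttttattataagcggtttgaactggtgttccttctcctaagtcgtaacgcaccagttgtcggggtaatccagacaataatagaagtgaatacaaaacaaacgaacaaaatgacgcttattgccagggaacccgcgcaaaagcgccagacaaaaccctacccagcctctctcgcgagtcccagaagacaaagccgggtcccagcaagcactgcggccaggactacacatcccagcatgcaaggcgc
Beside the ratios, the HSPA1A and HSPA1B windows each held 1 exact match, and their shared probe set had the largest ratio of the group. The windows with 3 exact units in a row belonged to genes within 1.5-fold on their brightest probe sets. DNAJB1 had 2 matches and was lower in spheroid culture. Units that depart from the letters searched were not counted, and a link between the matches and the ratios was not tested.

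**Figure D4:**
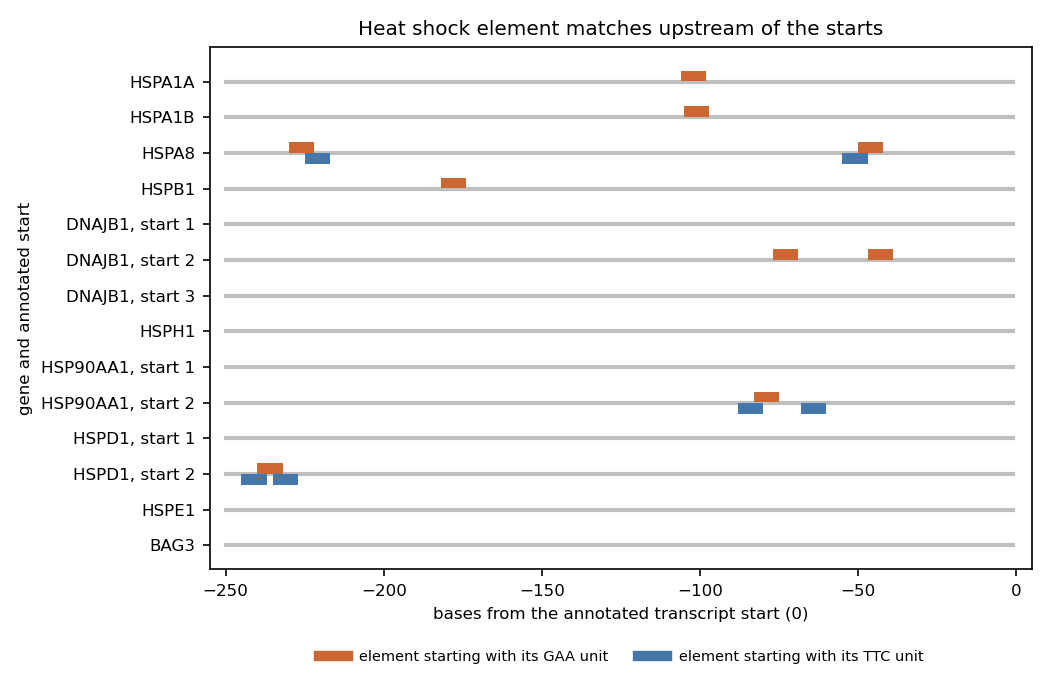
Positions of GAANNTTC (above the line) and TTCNNGAA (below the line) in the 250 bases before each annotated start of the 10 heat shock genes, with bases from the start on the horizontal axis. Matches appear in 7 of 14 windows, and overlapping boxes mark 3 units in a row in HSPA8, HSP90AA1 and HSPD1.

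The other genes of the chaperone network were described from lists of 93 genes in all. Of these, 87 had a probe set of their own, of which 80 exceeded the floor somewhere and 7 were at the floor on both arrays. Their median log2 ratio was -0.05, with 36 higher and 44 lower in spheroid culture. At least 2-fold higher were 4 of the 80 (against 6.86% of all genes above the floor) and at least 2-fold lower were 2 (against 5.50%). The larger network thus showed no common shift, while some of its groups differed in direction.

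The heat shock factors had 3 genes above the floor. HSF1, the main activator of the heat shock genes, gave 1060 in monolayer and 764 in spheroid culture, 1.39-fold lower (log2 ratio -0.47). HSF4, a factor best known from the lens, gave 66.9 and 132, at least 1.22-fold higher because the monolayer signal was at the floor. HSBP1, which binds HSF1, was 1.89-fold lower on its brightest probe set (8728 and 4612) but 1.58-fold higher on the other (3079 and 4870), so its probe sets disagreed. When arrays were divided by their medians the first of these ratios passed 2-fold (log2 ratio -1.06).

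Among the other HSP70 genes, 7 of 9 were above the floor, 4 higher and 3 lower, with a median of 0.15. HSPA6, which is expressed almost only under heat or proteotoxic stress, was at the floor on both arrays (39.6 and 89.5). HSPA12A, a distant HSP70 relative, gave 625 in monolayer and 1261 in the spheroids, 2.02-fold higher, and was under 2-fold when arrays were divided by their medians (log2 ratio 0.87). HSPA5, the HSP70 of the endoplasmic reticulum known as BiP, gave 13850 and 16118 (log2 ratio 0.22), and mitochondrial HSPA9 gave 12345 and 9419 (log2 ratio -0.39). Of the other HSP110 genes, HYOU1 of the endoplasmic reticulum was 1.72-fold higher (1708 and 2937). Cytosolic HSPA4 was 1.43-fold lower (3800 and 2667) on its brightest probe set. Of the 3 other HSPA4 probe sets, 2 were higher (1.75-fold and 1.01-fold) and 1 was lower (1.64-fold), so its probe sets disagreed.

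Of the other HSP40 genes, 12 of 17 were higher and 5 lower, with a median of 0.28, beside 47.2% lower among all genes above the floor. DNAJB9, also called ERdj4, an HSP40 of the endoplasmic reticulum that binds BiP, gave 2151 in monolayer and 6597 in the spheroids, 3.07-fold higher, and its other probe sets were 4.22-fold and 4.55-fold higher. DNAJC3, or p58IPK, which acts in the same compartment, gave 1149 and 2856, 2.49-fold higher, and all 4 of its probe sets were at least 2.00-fold higher. DNAJB11 (1.47-fold) and DNAJC10 (1.56-fold) of the same compartment were also higher. These 4 were grouped after their values were seen, so they do not describe the HSP40 genes of that compartment as a class. Of the other 13 HSP40 genes, 8 were higher and 5 lower. DNAJB1, which is cytosolic and nuclear, was on the other side of 0 from these 4.

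HSP90 genes other than HSP90AA1 were 1 higher and 2 lower, and 0 higher and 3 lower when arrays were divided by their medians. HSP90AB1, the constitutive cytosolic form, gave 20001 in monolayer and 17022 in spheroid culture, 1.18-fold lower. The HSP90AA1 probe sets were slightly higher as reported, but 2 of them changed sign with the scaling. TRAP1 of the mitochondrion was 1.91-fold lower (4436 and 2325) and passed 2-fold when arrays were divided by their medians (log2 ratio -1.07), while HSP90B1 of the endoplasmic reticulum was 1.04-fold higher. HSP90 cochaperones were 3 higher and 8 lower with a median of -0.03. Their lowest was FKBP5, a glucocorticoid-responsive immunophilin, 1.91-fold lower (1804 and 944) and past 2-fold when arrays were divided by their medians (log2 ratio -1.07), and their highest was UNC45A, 1.19-fold higher.

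HSP70 cochaperones were 6 higher and 3 lower with a median of 0.06, and 4 higher and 5 lower when arrays were divided by their medians. HSPBP1, a nucleotide exchange factor of HSP70, was the 1 gene past the limit, with 1554 in monolayer and 697 in spheroid culture, 2.23-fold lower. Of the other small heat shock proteins, 5 of 7 measured were at the floor on both arrays, and CRYAB, or alpha B crystallin, was 2.35-fold higher (247 and 580). Raising the floor to the 75th percentile left CRYAB a log2 ratio of only 0.28 as a lower bound, its monolayer signal then being at the floor. Mitochondrial chaperones and proteases were 2 higher and 5 lower, with CLPB, a disaggregase, 2.25-fold lower (1009 and 448).

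The cytosolic chaperonin CCT, which folds actin and tubulin, was lower in spheroid culture for all 7 measured subunits on their brightest probe sets. The median was -0.43, with ratios from -0.77 for CCT7 (10680 and 6250) to -0.05 for CCT2 (13286 and 12839), and 6 of 7 were lower with quantile normalization. Dim probe sets of CCT4 (1.20-fold) and CCT5 (1.32-fold) were higher. Of all genes above the floor, 47.2% were lower. Prefoldin, which hands clients to CCT, was lower for all 5 measured subunits with a median of -0.38. Its lowest was PFDN4, at -0.99 on its brightest probe set (7070 and 3547), whose other probe sets were higher. Its highest was PFDN5, at -0.08. None of these subunits passed 2-fold as reported, though PFDN4 did when arrays were divided by their medians (log2 ratio -1.13), and subunits of a complex are not replicates of a condition. Other heat-inducible genes were 3 higher and 3 lower, from IER5, an immediate early gene (5940 and 3743, 1.59-fold lower), to DEDD2 (2487 and 4109, 1.65-fold higher).

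For comparison, proteasome genes were 4 higher and 23 lower with a median of -0.33, and only PSMC3 passed 2-fold (log2 ratio -1.03). Genes of the endoplasmic reticulum stress response were 10 higher and 4 lower with a median of 0.21, although 7 and 7 when arrays were divided by their medians. XBP1, a transcription factor of that response, was 2.35-fold higher (2729 and 6425) on its brightest probe set and 1.37-fold lower on a dim one. Common reference genes were 2 higher and 6 lower with a median of -0.23, and HPRT1 had the lowest ratio among them, -1.21. The CCT, prefoldin and proteasome medians lay below the reference median, and the small downward ratios of HSPD1, HSPE1 and DNAJB1 were close to it.

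**Figure D5:**
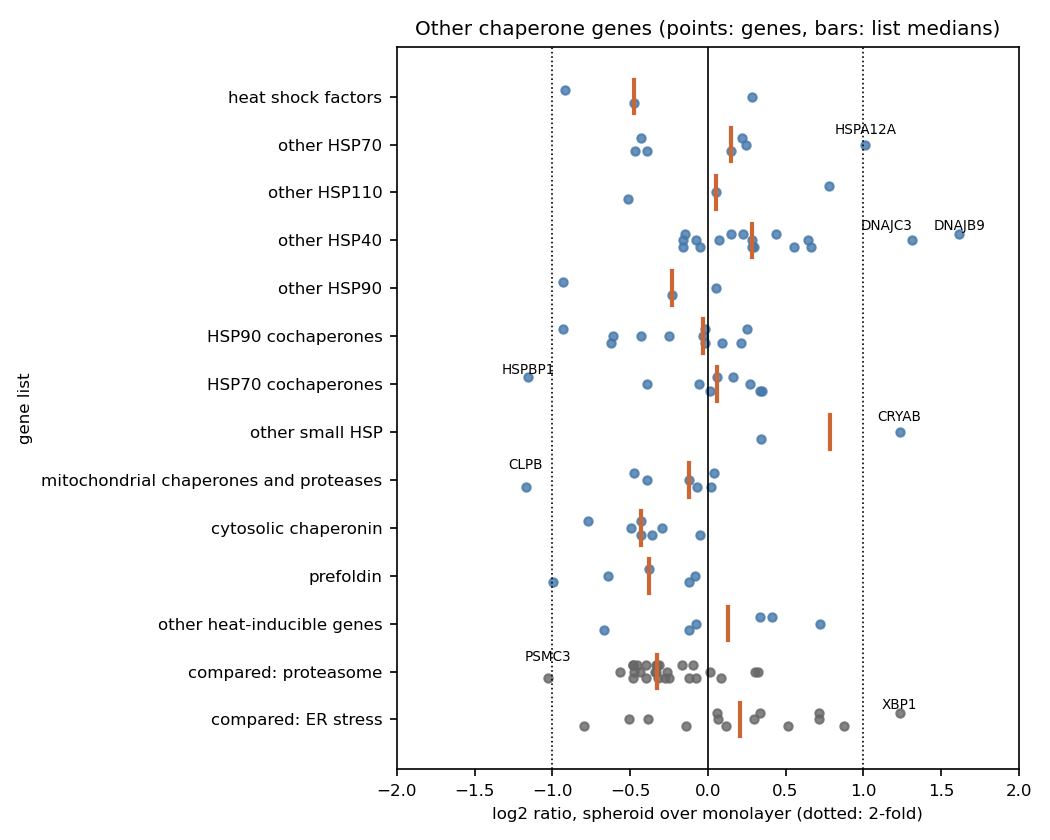
Log2 ratio, spheroid over monolayer, of each gene of the other chaperone lists (blue) and of 2 comparison lists (grey) above the floor, with the list median as a bar and genes past the dotted 2-fold lines named. Read from their brightest probe sets, all CCT and prefoldin genes lie left of 0 (6 of 7 CCT genes with quantile normalization), and DNAJB9 and DNAJC3 lie farthest to the right.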

How the data were processed

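RNA of 1 monolayer and 1 spheroid culture of A549 cells was compared, with 1 Affymetrix Human U133 plus 2.0 chip for each. The intensity values deposited by the authors are linear MAS5 signals of probe sets. MAS5 and GCOS are named in the processing notes of the submitters (versions not given in the sources used here), and GeneSpring GX in the methods, for the later analysis. The arrays had been scaled to a common level, with a mean signal of 500.1 on each after trimming 2% at each end, and signals reached 76362.3 in monolayer and 71935.5 in spheroid culture. Samples were mapped by their titles. The description field of both mentions a hepatoma line with a compound and was not used.

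The 62 control probe sets were left out. Signals under each array's median were raised to it, and log2 ratios were taken without further scaling. A ratio with 1 culture at the floor is a bound, and none is given with both at the floor. Genes outside the group were read from the brightest probe set annotated with that gene alone, which left out, among others, HSF2, AHSA1, HSPB11, TCP1 and PFDN6. The platform annotation gave 1 gene for 41097 probe sets, several for 1801 and none for 11777, and 41043 of the first were matched to RefSeq by Entrez identifier. All 10 genes were matched in the RefSeq promoter table of GRCh38.p14. The array's own coordinates were not used.

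No test was possible with 1 array per culture, so size was described by a fixed limit of 2-fold, beside the same share of all probe sets. All probe sets of the 10 genes are given. Of each other list, genes past the limit or, where there were none, the highest and lowest are named. HSF1, HSPA1L, HSPA5, HSPA6, HSPA9, HSP90AB1, DNAJB11, DNAJC10 and the cell type markers under the limit were named beyond this rule after their values were seen. The genes and lists were chosen with earlier results of these data known. Alternatives were another floor, scaling, limit or choice of probe sets, and counting HSPA1A and HSPA1B once, which was added after the data were seen. Scripts used Python 3.11.15 with numpy 2.4.6, pandas 2.3.3, scipy 1.17.1, Biopython 1.88 and matplotlib 3.10.9, and were tested on simulated data. The number of arrays limits the precision.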

Additional observations from a re-analysis of the deposited data

How the results depend on the processing

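The count of 2 heat shock protein probe sets past 2-fold upward and 0 downward held with no floor, floors at the 25th or 75th percentile, quantile normalization and with arrays divided by their medians. The higher count was 0 at a limit of 3-fold, 1 of 6 without the probe sets named _s_at or _x_at, and 0 of 16 with only the probe sets annotated with 1 gene, which leave out HSPA1A, HSPA1B and HSPA8. The median over the genes, 0.22, was 0.33 with quantile normalization and 0.077 with arrays divided by their medians, where the median of all probe sets moved from 0.06 to -0.08. It was 0.44 without _s_at and _x_at probe sets (5 genes) and -0.020 with only probe sets of 1 gene (7 genes). The median of the other chaperone genes, -0.05, was -0.19 with arrays divided by their medians. The signs of HSPB1 201841_s_at, HSPD1 200807_s_at and 2 HSP90AA1 probe sets changed with the scaling. No paired analysis was possible because there was 1 array per culture. Signals near the floor, as for HSPD1 241716_at, limit the dim probe sets.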

Other observations

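Genes of the DNAJ family outside the lists were looked at after the values were seen. Of 25 measured, 20 exceeded the floor, 11 higher and 9 lower in spheroid culture (median log2 ratio 0.09), and 2 passed 2-fold upward (beside 6.86% of all genes) and 0 downward (beside 5.50%). DNAJC15, an HSP40 of the inner mitochondrial membrane, gave 53.3 in monolayer and 968 in spheroid culture, at least 8.95-fold higher. DNAJC22 gave 563 and 1579, 2.80-fold higher. The lowest was DNAJC9, a histone cochaperone, with 3356 in monolayer and 1711 in spheroid culture (log2 ratio -0.97). The ratio of DNAJC15 was above the 1.46 of HSPA1A and HSPA1B. Those of DNAJC22 (log2 ratio 1.49) and DNAJB9 (1.62) were too near 1.46 to be ranked. The spread between probe sets of a gene was 0.50. Other probe sets of DNAJC15 and DNAJC22 were not examined.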
